A study of Mus musculus with 12 samples.

Results

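The mature neutrophil granule genes described here are S100a8, S100a9, Ltf, Camp, Ngp, Lcn2, Mmp8, Mmp9, Retnlg and Chil3, each found by its symbol in the platform annotation of the array. Each of these 10 genes had 1 probe set, among 19494 genes tested. They were read on 12 single-colour arrays of mouse blood stem and progenitor cells, in 4 groups of 3 arrays. The values are log2 intensities, so a difference of 1 corresponds to a doubling of the signal.

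The groups were hematopoietic stem cells (HSC) and multipotent progenitors (MPP) of NFAT5-deficient donors (Nfat5 fl/fl Vav-Cre), and HSC and MPP of wild-type donors (Nfat5 +/+ Vav-Cre). All donors carried CD45.2 and the Vav-Cre transgene, which is active across the blood lineage, so loss of Nfat5 was not limited to HSC and MPP. Their marrow was placed into irradiated wild-type recipients that carried CD45.1, and CD45.2+ cells were sorted 13 weeks later from the LSK compartment, the marrow cells that lack lineage markers and carry Sca-1 and Kit. HSC were CD48- CD150+ and MPP were CD48+ CD150-. An array is named here by its group and the number in its sample title, which was 64, 70 or 76 for NFAT5-deficient and 66, 67 or 75 for wild-type cells. The labels do not say whether a number stands for a donor, a recipient or a pool, so the p-values below measure the spread between these arrays, which may be technical.

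Neutrophils pack antimicrobial proteins into granules that are made in sequence while the cell matures in the marrow. Primary (azurophil) granules form first, at the promyelocyte stage, and hold proteases and myeloperoxidase; secondary (specific) granules with lactoferrin, cathelicidin and lipocalin 2 follow, then tertiary granules with gelatinase. The heterodimer of S100A8 and S100A9, called calprotectin, accumulates in the cytosol of mature neutrophils. Transcription factors of the C/EBP family and PU.1 drive these genes in granulocyte precursors, and HSC and MPP as sorted here lie upstream of those stages.

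The promoters of S100a8, S100a9, Ngp and Camp are printed because these 4 genes were above background signal on 6 or more of the 12 arrays. S100a8 and S100a9 are neighbours on chromosome 3 with 0 protein-coding genes between them, and Camp and Ngp lie on chromosome 9 with 8 protein-coding genes between them, in the RefSeq annotation of GRCm38.p6. Each run is RefSeq sequence of GRCm38.p6, 5′ to 3′ on the gene's own strand, and covers the 300 bases around the annotated start, at chr3:90668821-90669120 (plus strand) for S100a8, chr3:90695672-90695971 (minus strand) for S100a9, chr9:110419558-110419857 (plus strand) for Ngp and chr9:109849407-109849706 (minus strand) for Camp. Capitals mark matches to the C/EBP core TTNNGNAA on either strand.
S100a8: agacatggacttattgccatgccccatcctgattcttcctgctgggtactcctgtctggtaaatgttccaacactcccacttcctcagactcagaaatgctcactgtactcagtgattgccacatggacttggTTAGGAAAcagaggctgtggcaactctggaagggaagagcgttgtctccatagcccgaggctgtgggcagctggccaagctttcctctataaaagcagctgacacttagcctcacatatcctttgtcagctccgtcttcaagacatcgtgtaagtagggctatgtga
S100a9: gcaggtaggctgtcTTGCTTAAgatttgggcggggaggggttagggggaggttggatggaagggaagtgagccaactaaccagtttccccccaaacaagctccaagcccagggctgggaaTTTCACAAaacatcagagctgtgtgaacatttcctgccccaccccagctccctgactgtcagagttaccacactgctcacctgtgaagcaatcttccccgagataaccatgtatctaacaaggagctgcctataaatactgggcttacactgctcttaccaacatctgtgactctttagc
Ngp: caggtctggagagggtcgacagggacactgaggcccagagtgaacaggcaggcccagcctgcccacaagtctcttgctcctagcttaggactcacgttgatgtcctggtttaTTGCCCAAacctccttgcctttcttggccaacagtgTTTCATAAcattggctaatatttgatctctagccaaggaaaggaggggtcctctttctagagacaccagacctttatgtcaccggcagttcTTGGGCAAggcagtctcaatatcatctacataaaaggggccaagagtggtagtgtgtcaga
Camp: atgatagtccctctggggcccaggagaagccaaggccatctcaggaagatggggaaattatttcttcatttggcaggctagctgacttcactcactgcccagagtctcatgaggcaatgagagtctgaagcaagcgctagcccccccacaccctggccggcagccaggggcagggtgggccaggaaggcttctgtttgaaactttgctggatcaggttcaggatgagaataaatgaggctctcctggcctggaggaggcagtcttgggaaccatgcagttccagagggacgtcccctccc
The C/EBP core was found once in the S100a8 promoter, at positions -117 to -110 relative to the start, and in 2 places in that of S100a9 and 3 in that of Ngp. The Camp window held none of these letters. Promoters of 9 of the 10 genes were in the RefSeq table, and 8 of those 9 held the core, against 40.7% of 32851 promoters of the same length. A PU.1 core (GAGGAA, either strand) was found in 4 of the 9, against 28.3% of promoters, and an NFAT core (TGGAAA, either strand) in 3 of the 9, in Lcn2, Retnlg and Chil3, against 21.4%. In Chil3 the NFAT core overlapped a C/EBP core. These matches describe letters in the window and were not tested as binding sites.

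As a check of the labels, Nfat5 ranged from 7.62 to 8.76 on NFAT5-deficient and 9.27 to 9.81 on wild-type HSC arrays, and from 7.63 to 8.40 on NFAT5-deficient and 8.12 to 8.85 on wild-type MPP arrays. The sources used here do not say whether its probe set lies in the deleted part, and neither difference passed limma's test (adjusted p 0.772 and 0.896). Slamf1, which encodes the CD150 used for sorting, averaged 10.08 in HSC and 6.46 in MPP of NFAT5-deficient donors, and 9.84 in HSC and 6.26 in MPP of wild-type donors, and passed in both (limma adjusted p 0.00457 and 0.00346). Replicate arrays of one group had correlations of 0.898 to 0.952 across genes. No detection calls were used, so the 95th percentile of 1091 olfactory receptor genes, which blood cells are not known to use, served as a background level on each array. It lay between 6.15 and 6.49.

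S100a9, the larger subunit of calprotectin, read 6.0, 5.48 and 6.64 on NFAT5-deficient HSC arrays 64, 70 and 76, against 10.85, 10.26 and 6.38 on wild-type HSC arrays 66, 67 and 75. In MPP it read 9.51, 9.06 and 9.0 on NFAT5-deficient arrays 64, 70 and 76, against 10.09, 10.27 and 8.14 on wild-type arrays 66, 67 and 75. The NFAT5-deficient HSC arrays and wild-type HSC array 75 were low, and the other 8 arrays were high. S100a9 exceeded the olfactory receptor level on 9 of 12 arrays, all 6 MPP arrays among them. From lowest to highest, the group means were 6.04 ± 0.58 for NFAT5-deficient HSC, 9.16 ± 2.43 for wild-type HSC, 9.19 ± 0.28 for NFAT5-deficient MPP and 9.50 ± 1.18 for wild-type MPP (SD over 3 arrays). The last 3 groups did not differ beyond their spread. Because each array is a bulk sample, fewer cells of a type and less RNA per cell cannot be told apart.

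S100a8, the partner subunit, read 4.22, 6.43 and 5.40 on NFAT5-deficient HSC arrays 64, 70 and 76, against 9.62, 8.99 and 4.47 on wild-type HSC arrays 66, 67 and 75. In MPP it read 8.26, 8.35 and 6.71 on the NFAT5-deficient arrays, against 9.28, 9.15 and 5.22 on the wild-type arrays, in the same order of numbers. Wild-type array 75 was the lowest of its genotype in both populations, and on it S100a8 lay inside the range of the NFAT5-deficient HSC arrays in HSC and below every NFAT5-deficient array in MPP. The SD of S100a8 in wild-type HSC, 2.81, was larger than that of 99.9% of genes, and the SD of S100a9, 2.43, larger than that of 99.8%. Over the 12 arrays S100a8 and S100a9 correlated at r = 0.88, and at 0.87 after each group's mean was taken off (a description over arrays that share groups).

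**Figure D1:**
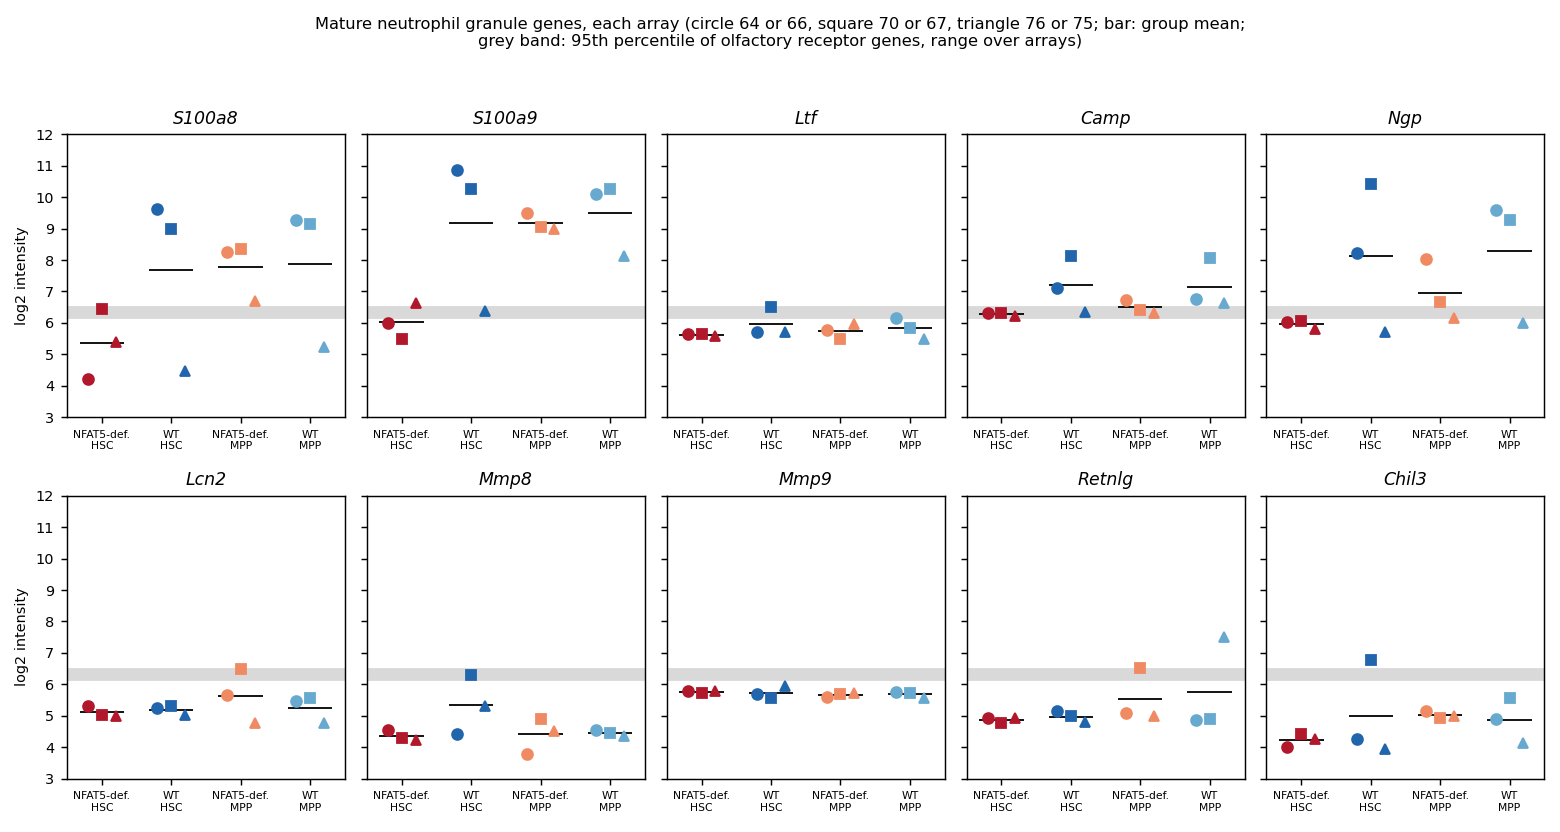
Log2 intensity (y axis) of each granule gene on each array (points, shaped by array number) in the 4 groups (x axis), with group means as bars and the range over arrays of the olfactory receptor 95th percentile as a grey band. S100a8, S100a9, Ngp and Camp all lie above the band on wild-type HSC arrays 66 and 67, and all fail to on wild-type HSC array 75 (triangle). Mmp8 and Mmp9 exceeded their array's olfactory receptor level on 0 of 12 arrays.

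Among the secondary granule genes, Ngp, which encodes a cystatin-like granule protein, varied most. It read 6.02, 6.06 and 5.82 on NFAT5-deficient HSC arrays 64, 70 and 76, against 8.21, 10.43 and 5.72 on wild-type HSC arrays 66, 67 and 75, and 8.04, 6.66 and 6.15 on the NFAT5-deficient MPP arrays, against 9.58, 9.28 and 6.01 on the wild-type MPP arrays. Ngp was thus high on wild-type arrays 66 and 67 in both populations, intermediate to low on the NFAT5-deficient MPP arrays, and under the olfactory receptor level on wild-type array 75. Its SD of 2.36 in wild-type HSC was larger than that of 99.7% of genes.

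Camp, the gene of the antimicrobial peptide cathelicidin, read 6.32, 6.33 and 6.21 on the NFAT5-deficient HSC arrays, against 7.12, 8.13 and 6.36 on the wild-type HSC arrays. In MPP it read 6.74, 6.41 and 6.33 on the NFAT5-deficient arrays, against 6.75, 8.07 and 6.62 on the wild-type arrays. Array 67 was the highest for Camp in both wild-type populations. The HSC groups did not overlap, but wild-type array 75 lay only just above the highest NFAT5-deficient array. Camp and Ngp correlated at r = 0.85 over the 12 arrays and at 0.79 after group means were taken off.

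Ltf, which encodes the iron-binding protein lactoferrin, ran from 5.57 to 5.64 on NFAT5-deficient HSC arrays and from 5.70 to 6.50 on wild-type HSC arrays, the 6.50 on array 67. In MPP it ran from 5.48 to 5.97 on NFAT5-deficient and from 5.49 to 6.17 on wild-type arrays. It exceeded the olfactory receptor level on 1 of 12 arrays. Lcn2, whose product binds bacterial siderophores, averaged 5.11 ± 0.18 in NFAT5-deficient and 5.18 ± 0.15 in wild-type HSC, and 5.63 ± 0.86 in NFAT5-deficient and 5.26 ± 0.44 in wild-type MPP (SD, n = 3). Its single value above the olfactory receptor level was 6.48 on NFAT5-deficient MPP array 70. Mmp8, neutrophil collagenase, stayed below that level on all 12 arrays, and its highest values, 6.29 and 5.32, were on wild-type HSC arrays 67 and 75.

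Mmp9, the gelatinase of tertiary granules, ran from 5.56 to 5.95 over the 12 arrays, a range of 0.39, and 3.23% of genes had a smaller one. It stayed below the olfactory receptor level throughout, so these arrays give no usable order for it. Retnlg, a resistin-like gene of mouse neutrophils, exceeded the level on 2 arrays, NFAT5-deficient MPP array 70 at 6.53 and wild-type MPP array 75 at 7.50. On NFAT5-deficient MPP array 70 S100a8 was also the highest of its group, whereas on wild-type MPP array 75 S100a8 and Ngp were the lowest of theirs. Chil3, which encodes a chitinase-like protein also made by macrophages, exceeded it only on wild-type HSC array 67, at 6.76. The other 11 Chil3 values lay at or under 5.56, the value on wild-type MPP array 67.

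The spread among replicates was therefore carried by particular arrays rather than shared evenly. Wild-type array 75 was the lowest of its group for 7 of the 10 genes in HSC and 9 of the 10 in MPP, and wild-type HSC array 67 was the highest for 6. NFAT5-deficient array 76 was the lowest of its group for 5 of the 10 genes in HSC and 6 in MPP. These counts include genes at background, and the share of all genes lowest on each array was not computed. The mean of the 10 genes was 5.27, 5.41 and 5.38 on NFAT5-deficient HSC arrays 64, 70 and 76, against 6.62, 7.32 and 5.36 on wild-type HSC arrays 66, 67 and 75. In MPP it was 6.36, 6.45 and 5.91 on the NFAT5-deficient arrays and 6.74, 6.87 and 5.78 on the wild-type arrays. The median SD of the 10 genes was 0.14 in NFAT5-deficient HSC, against 0.91 in wild-type HSC, where the medians over all genes were 0.22 and 0.25. Only 0 to 1 of the 10 genes were above the olfactory receptor level on NFAT5-deficient HSC arrays, and 0 to 6 on wild-type HSC arrays. The 0.14 is thus mostly a spread of values at background. S100a8 and S100a9 had SDs of 1.11 and 0.58 in NFAT5-deficient HSC, larger than those of 95.6% and 83.3% of genes. In MPP it was 0.43 in NFAT5-deficient and 0.76 in wild-type cells, where the medians over all genes were 0.20 and 0.23.

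**Figure D2:**
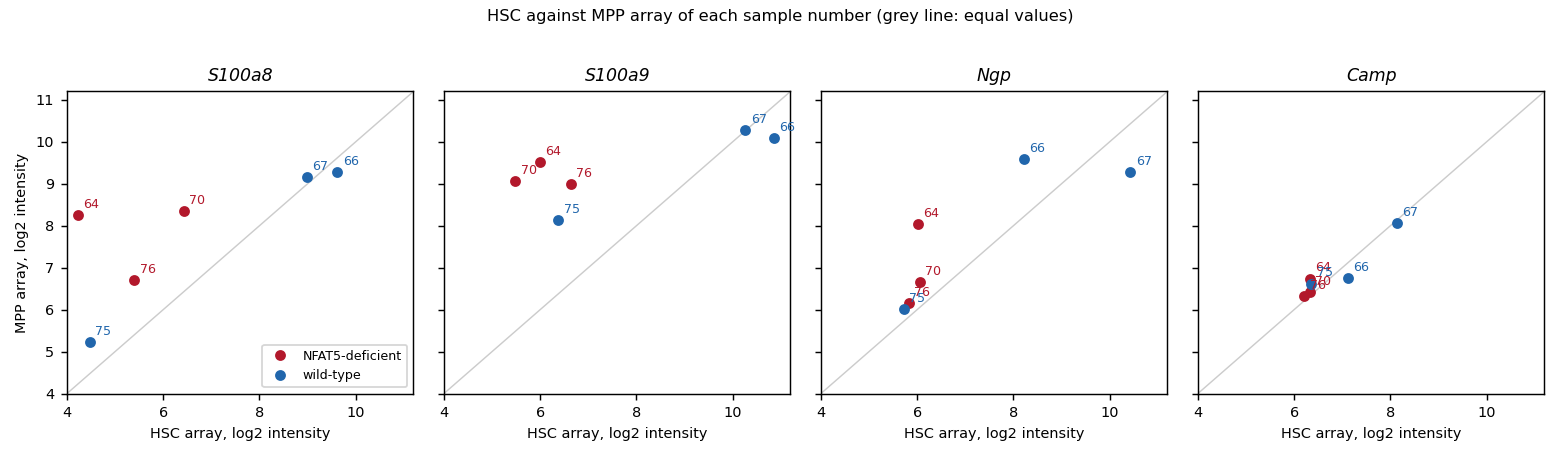
Log2 intensity of S100a8, S100a9, Ngp and Camp on the HSC array (x axis) and the MPP array (y axis) of each sample number, with NFAT5-deficient numbers in red and wild-type numbers in blue and a grey line at equal values. Wild-type numbers 66 and 67 are high on both axes and number 75 is low on both for S100a8 and Ngp, and the NFAT5-deficient numbers lie above the line in all 4 panels.

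The genes did not all vary together to the same degree. Over the 12 arrays, each gene's correlation with the mean of the other 9 was 0.88 for Ngp, 0.86 for S100a9, 0.84 for S100a8, 0.79 for Camp and 0.77 for Chil3. It was 0.63 for Ltf, 0.41 for Lcn2 and 0.28 for Mmp8. For Retnlg and Mmp9 it was -0.13 and -0.56, but Mmp9 exceeded the olfactory receptor level on 0 of 12 arrays. These correlations describe arrays that share groups, and 6 of the 10 genes exceeded the olfactory receptor level on 2 arrays or fewer.

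The first comparison asked what loss of NFAT5 did to these genes in HSC. Values of 9 of the 10 genes were lower in NFAT5-deficient HSC, against 58.4% of all genes, with a median difference of -0.84 for the 10 genes and -0.05 for all genes. None of the 10 passed limma's test over all genes (0 of 10 at an adjusted p under 0.05, against 0% of 19494 genes), and 2 had an unadjusted p under 0.05, against 6.18% of genes. S100a9 differed by -3.12 (SE 1.0, 95% confidence interval -5.33 to -0.91, limma adjusted p = 0.779), with overlapping groups. S100a8 differed by -2.34 (SE 1.39, interval -5.42 to 0.73), Ngp by -2.16 (SE 1.15, interval -4.71 to 0.39), Mmp8 by -0.99 (SE 0.40, interval -1.87 to -0.10) and Camp by -0.92 (SE 0.45, interval -1.91 to 0.07). In NFAT5-deficient HSC, Ngp, Camp and Mmp8 were above the olfactory receptor level on 0 of 3 arrays and S100a8 and S100a9 on 1 of 3, and Mmp8 was above it on 0 of 3 wild-type HSC arrays, so these differences are taken against values at background and their exact sizes are not measured. Groups did not overlap for 2 genes, Camp and Ltf (difference -0.35), both lower in NFAT5-deficient HSC, against 6.61% of genes lower without overlap; 0 were higher without overlap, against 3.55% of genes. For these 2 the exact two-sided permutation p was 0.1, the smallest that 3 against 3 arrays allow. The highest NFAT5-deficient and lowest wild-type values lay close, at 6.33 and 6.36 for Camp and 5.64 and 5.70 for Ltf. The Camp value of 6.36, on wild-type array 75, was under the olfactory receptor level. Ltf was above it on 0 of 3 NFAT5-deficient and 1 of 3 wild-type HSC arrays, so its order is mostly one of values at background.

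The outcome depended on array 75. With both arrays of number 75 left out, an alternative chosen after seeing the data, S100a9 passed at a difference of -4.51 (limma adjusted p = 0.0108), as 1 of 5 genes called in all. Over the 27 other settings of this comparison its adjusted p ran from 0.0108 to 0.991. With only wild-type HSC array 75 left out the difference was also -4.51 and did not pass (adjusted p = 0.0883). Wild-type HSC array 75 was low for these genes, so leaving it out makes the difference larger by construction. Wild-type MPP array 75 entered this comparison only through the shared estimate of spread.

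In MPP the genotypes were closer for these genes. The median difference of the 10 genes, NFAT5-deficient minus wild-type, was -0.10, against -0.07 for all genes, and 8 of the 10 values were lower, against 61.1% of all genes. Limma called 0 of the 10 (0.00513% of genes passed), and 0 had an unadjusted p under 0.05, against 5.35% of genes. Ngp differed by -1.34 (SE 1.15, interval -3.89 to 1.21) and Camp by -0.65 (SE 0.45, interval -1.64 to 0.34). S100a9 differed by -0.31 (SE 1.0, interval -2.52 to 1.90) and S100a8 by -0.11 (SE 1.39, interval -3.19 to 2.96), intervals that still include differences as large as 2 on the log2 scale. Groups overlapped for all 10 genes, whereas 8.84% of genes were lower and 3.8% higher without overlap.

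The difference between the NFAT5 effects in HSC and MPP was tested as an interaction. For S100a9 it was -2.81 (SE 1.41, interval -5.93 to 0.31, limma adjusted p = 0.999). For S100a8 it was -2.23 (SE 1.97) and for Ngp -0.82 (SE 1.63). Limma called 0 of the 10 (0% of all genes passed), and 0 had an unadjusted p under 0.05, against 4.19% of genes, so the genotype differences of S100a9 and S100a8 were not shown to differ between HSC and MPP.

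**Figure D3:**
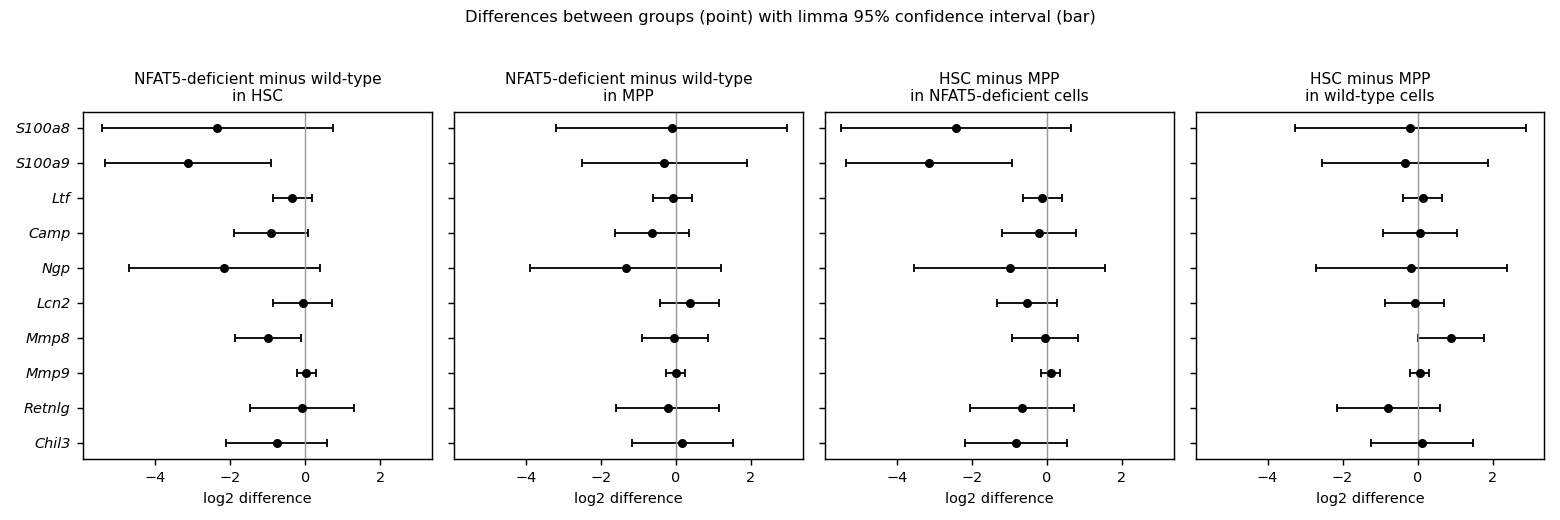
Log2 differences (x axis) of the 10 genes (rows) in the 4 comparisons of 2 groups, with limma's 95% confidence intervals as bars. The intervals of S100a9 and Mmp8 in NFAT5-deficient minus wild-type HSC and of S100a9 in NFAT5-deficient HSC minus MPP lie below 0, that of Mmp8 in wild-type HSC minus MPP lies just above 0, and 0 of 10 genes passed after adjustment in any panel.

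HSC were also compared with MPP within each genotype. In NFAT5-deficient cells, values of 9 of the 10 genes were lower in HSC, against 37.9% of all genes, and the median difference was -0.59, against 0.07 for all genes. HSC and MPP arrays did not overlap for 7 of the 10 genes. Of those, 6 were lower in HSC (S100a8, S100a9, Camp, Ngp, Retnlg and Chil3), against 5.39% of genes lower without overlap, and Mmp9 was higher by 0.10, against 11.5% of genes higher without overlap. For each of the 7 the exact two-sided permutation p was 0.1, the smallest possible. Mmp9 and Chil3 were above the olfactory receptor level on 0 of these 6 arrays and Retnlg on 1, so for them the order is one of values at background. Camp and Ngp were above it on 0 of 3 HSC arrays and separated narrowly. The highest HSC and lowest MPP values were equal after rounding for Camp, at 6.33, and were 6.06 and 6.15 for Ngp. The Ngp value of 6.15, on MPP array 76, also lay under that level. S100a9 differed by -3.15 (SE 1.0, interval -5.36 to -0.94, limma adjusted p = 0.434) and S100a8 by -2.42 (SE 1.39, interval -5.50 to 0.65). Limma called 0 of the 10 genes, against 0.21% of all genes, and 1 of the 10 had an unadjusted p under 0.05, against 7.9% of genes. With both arrays of number 75 left out S100a9 passed at the same difference of -3.15 (limma adjusted p = 0.02), and over the 27 other settings its adjusted p ran from 0.02 to 0.818. The left-out arrays are wild-type and entered this comparison only through the shared estimate of spread.

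In wild-type cells, 5 of the 10 genes had lower and 5 had higher values in HSC, where 41.4% of all genes were lower, with a median difference of -0.01, against 0.05 for all genes. S100a9 differed by -0.34 (SE 1.0, interval -2.55 to 1.87) and S100a8 by -0.19 (SE 1.39, interval -3.27 to 2.88). Mmp8 differed by 0.90 (SE 0.40, interval 0.01 to 1.78, limma adjusted p = 0.555), with both groups below the olfactory receptor level. Limma called 0 of the 10, against 0.164% of all genes, and 1 had an unadjusted p under 0.05, against 8.9% of genes. The groups overlapped for all 10, whereas 4.74% of genes were lower and 7.54% higher without overlap. The comparisons share arrays: the 3 NFAT5-deficient HSC arrays enter both the HSC genotype comparison and the NFAT5-deficient population comparison, so the S100a9 values of -3.12 and -3.15 are not separate evidence.

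Other genes of neutrophils were read beside these. Of 40 further genes of mature neutrophils 33 were measured, and limma called 0 of them in any of the 5 comparisons. Their values were lower in NFAT5-deficient than wild-type HSC for 29 of 33 (median -0.19), against 58.4% of all genes. They were lower in NFAT5-deficient HSC than MPP for 23 (median -0.25), against 37.9% of all genes. Of the 33, 11 to 13 were above the olfactory receptor level on NFAT5-deficient HSC arrays and 15 to 16 on wild-type HSC arrays. On the MPP arrays of either genotype 15 to 20 were. Many of these directions are thus orders of values at background. The 2 with the largest range of group means were Ncf4, a subunit of the NADPH oxidase, and Clec4d, a C-type lectin receptor. Clec4d averaged 5.47 ± 0.27 in NFAT5-deficient HSC and 6.36 ± 1.28 in wild-type HSC, and 6.81 ± 0.74 in NFAT5-deficient MPP and 7.64 ± 1.47 in wild-type MPP (SD, n = 3). Ncf4 stood apart in another group, at 7.05 ± 1.24 in NFAT5-deficient MPP against 4.67 ± 0.72 in wild-type MPP (limma adjusted p = 0.706). The Clec4d values in NFAT5-deficient HSC and the Ncf4 values in wild-type MPP lay under the olfactory receptor level.

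The primary granule genes, which precede the secondary granule genes in maturation, had list means that did not overlap between HSC and MPP arrays. Their mean ran from 6.66 to 7.81 on NFAT5-deficient HSC arrays and from 8.74 to 9.12 on NFAT5-deficient MPP arrays, and from 6.68 to 7.39 on wild-type HSC and 8.64 to 8.91 on wild-type MPP arrays. Of 10 measured, 10 had lower values in HSC than MPP in NFAT5-deficient cells (list median -1.58), against 37.9% of all genes. In wild-type cells 9 did (list median -1.53), against 41.4% of all genes. Limma called 3 of the 10 in NFAT5-deficient cells, Ctsg (cathepsin G), Fcnb (ficolin B) and Nkg7, where 0.21% of all genes passed. In wild-type cells it called 2, Elane (neutrophil elastase) and Ctsg, where 0.164% of all genes passed. Ctsg differed by -4.42 (SE 0.66, limma adjusted p = 0.0336) in NFAT5-deficient and -4.24 (SE 0.66, limma adjusted p = 0.0388) in wild-type cells. Ctsg was under the olfactory receptor level on every NFAT5-deficient HSC array and on wild-type HSC arrays 66 and 75. Elane was under it on every wild-type HSC array, at most at 6.20. The exact sizes of their HSC minus MPP differences are therefore not measured. Single arrays stood apart here too: Ms4a3 read 10.01 on NFAT5-deficient HSC array 70, against 5.37 and 5.34 on arrays 64 and 76, and Ctsg read 7.63 on wild-type HSC array 67, against 5.08 and 4.75 on arrays 66 and 75. The calls changed with the setting: over the 27 other settings, which leave out arrays or change the fit or the scaling, Ctsg passed in 15 for NFAT5-deficient and 9 for wild-type cells, and the number of list genes called ran from 0 to 4 and from 0 to 3. Mpo, myeloperoxidase, averaged 8.53 ± 2.09 in NFAT5-deficient HSC and 11.68 ± 0.14 in NFAT5-deficient MPP, against 7.48 ± 0.57 in HSC and 11.76 ± 0.17 in MPP of wild-type donors (SD, n = 3), and did not pass. Limma called 0 of the 10 between genotypes in either population, where the list medians were -0.01 in HSC and -0.07 in MPP. Fcnb came nearest, with a genotype difference of 1.22 (SE 0.15, limma adjusted p = 0.0624) in MPP. Its HSC minus MPP difference was -1.27 in NFAT5-deficient and 0.28 in wild-type cells (interaction limma adjusted p = 0.204). Fcnb read at most 5.54 on HSC and at most 5.35 on wild-type MPP arrays, under the olfactory receptor level. On NFAT5-deficient MPP arrays 64, 70 and 76 it read 6.30, 6.62 and 6.08, the last also under that level. These differences are thus taken against values at background.

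Regulators of the granulocyte program were also read. Of 12 measured, limma called 0 in any comparison. Values were lower in NFAT5-deficient than wild-type HSC for 11, against 58.4% of all genes (median -0.13, against -0.05 for all genes). Cebpe, the C/EBP factor needed for secondary granules in mice, differed by -0.22 (SE 0.29) in HSC and -0.24 (SE 0.29) in MPP, NFAT5-deficient minus wild-type. Csf3r, the receptor for granulocyte colony-stimulating factor and also a gene of the mature neutrophil list, differed by -0.69 (SE 0.40) in HSC and 0.06 (SE 0.40) in MPP. Stat3, which acts below that receptor, and Spi1, which encodes PU.1, had the largest ranges of group means in the list, 1.52 and 1.33. Spi1 was 9.06 ± 3.30 in NFAT5-deficient HSC and 8.13 ± 0.26 in wild-type HSC (SD, n = 3). Of 9 receptors and relatives of calprotectin, limma called 0 in any comparison. S100a6 averaged 9.44 ± 0.35 in NFAT5-deficient HSC and 9.98 ± 0.32 in wild-type HSC, and S100a1 8.48 ± 0.31 and 7.93 ± 0.75 (SD, n = 3), where S100a8 and S100a9 had larger SDs (1.11 and 0.58 in NFAT5-deficient, 2.81 and 2.43 in wild-type HSC). In NFAT5-deficient MPP the SDs of S100a6 and S100a1, 1.64 and 0.98, were the larger ones, against 0.92 for S100a8 and 0.28 for S100a9.

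**Figure D4:**
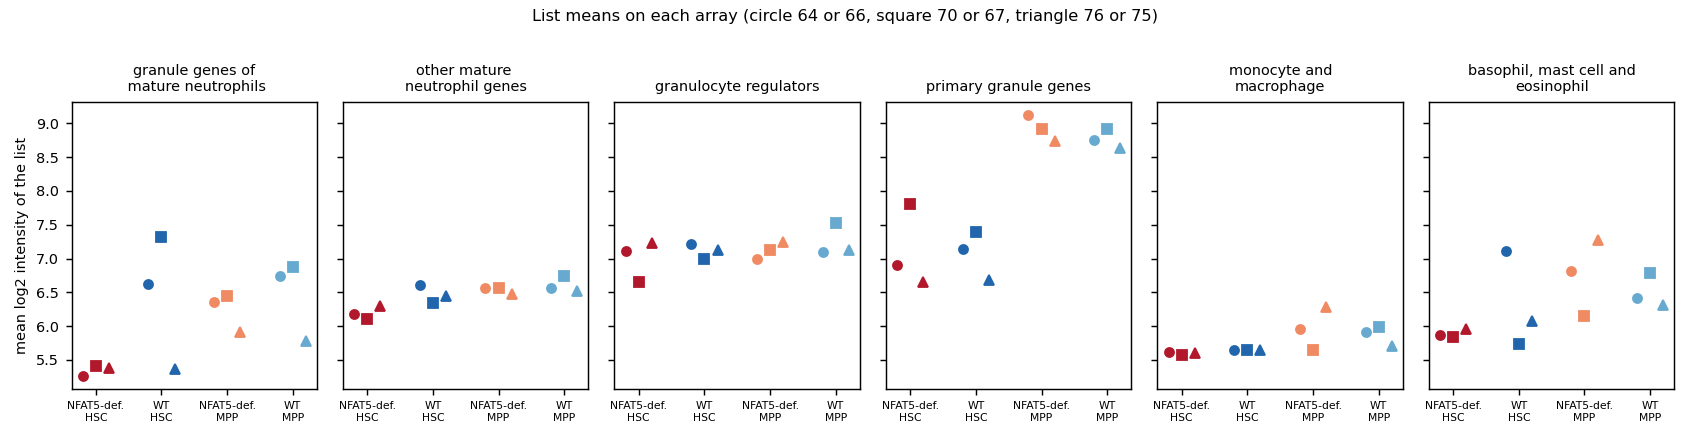
Mean log2 intensity (y axis) of the 10 granule genes and 5 other lists on each array (points, shaped by array number) in the 4 groups (x axis). The granule gene mean spans 5.36 to 7.32 within wild-type HSC, while the primary granule mean separates HSC (6.66 to 7.81 NFAT5-deficient, 6.68 to 7.39 wild-type) from MPP (8.74 to 9.12 NFAT5-deficient, 8.64 to 8.91 wild-type).

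Markers of other cells were read on the same arrays. The mean of 13 monocyte and macrophage markers ran from 5.58 to 5.62 on NFAT5-deficient and 5.64 to 5.65 on wild-type HSC arrays. Only 0 to 2 of the 13 were above the olfactory receptor level on any HSC array. This mean is thus mostly one of values at background there, and whether such cells varied with the granule genes cannot be read from it. In MPP the mean of these 13 markers ran from 5.64 to 6.29 on NFAT5-deficient and 5.70 to 5.99 on wild-type arrays. The mean of 10 basophil, mast cell and eosinophil markers was 7.11 on wild-type HSC array 66, against 5.73 on array 67 and 6.08 on array 75, and 5.84 to 5.96 on NFAT5-deficient HSC arrays. On array 66 the eosinophil granule genes Prg2 and Ear6 read 11.76 and 9.94, against at most 6.62 and 5.45 on the other 5 HSC arrays, while Epx read 5.84 there. In MPP the mean of these 10 markers ran from 6.15 to 7.28 on NFAT5-deficient and 6.32 to 6.79 on wild-type arrays. It was highest on NFAT5-deficient MPP array 76 (Prg2 10.72, Ear6 8.47), where the granule gene mean was the lowest of its group. The part of such cells in the granule gene values was not tested. B cell markers ran from 6.24 to 6.72 and T and NK cell markers from 5.22 to 5.51 over the HSC arrays, and limma called 0 of the markers of these 4 lists, or of the 5 erythroid and 9 stromal and endothelial markers measured, in any comparison. Of 7 megakaryocyte and platelet markers, 7 had higher values in HSC than MPP in NFAT5-deficient cells (median 0.97) and 6 in wild-type cells (median 0.38). Limma called 1 of them, Pf4, in both genotypes (adjusted p 0.0474 in NFAT5-deficient and 0.0388 in wild-type cells). Of 9 HSC markers, 8 had higher values in HSC in each genotype (medians 1.07 and 1.61), and limma called Slamf1 and Tek in both. Over all genes 0.21% passed in NFAT5-deficient and 0.164% in wild-type cells.

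The genes most like the 10 in pattern were sought among 8674 genes with a range of at least 1 over the 12 arrays. By Pearson correlation with the mean of the 10, the top 5 were Zfp563 (r = 0.86), Atat1 (0.84), Glrx5 (0.84), Rad18 (0.81) and H2bc3 (0.81). Zfp563 read 4.30, 5.10 and 5.36 on NFAT5-deficient HSC arrays 64, 70 and 76, against 6.31, 8.94 and 5.42 on wild-type HSC arrays 66, 67 and 75. By Spearman correlation the top 5 were Nostrin, Nlrp1c-ps, Fcer1g, Rassf2 and Atat1, so only Atat1 was in both. Fcer1g, the signalling chain of Fc receptors in myeloid cells, read 5.97, 5.54 and 6.03 on the NFAT5-deficient HSC arrays, against 7.12, 6.60 and 6.11 on the wild-type HSC arrays. Its values on the NFAT5-deficient HSC arrays and on wild-type HSC array 75 lay under the olfactory receptor level. So did the HSC values of Zfp563, except on wild-type array 67. How often such correlations arise by chance among 8674 genes was not tested.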

How the data were processed

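The deposited table holds log2 intensities as the authors computed them, with a value for every probe set on every array. RMA and limma, with no version, are the tools in the submitters' processing notes. Per the labels' protocols, NuGEN Ovation One-Direct chemistry amplified 300 pg of RNA for each array. No source used here gives the genome build behind the probe annotation. Scan dates and detection calls were not used, so no technical batch could be tested. For arrays, their number limits the precision.

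Among 22142 probe sets, 19527 carried a single gene symbol, 0 carried more and 2615 were unnamed. For 33 genes with more than 1 probe set the brightest was used, which left 19494 genes. All tests across genes used limma 3.58.1 under R 4.3.3 (4 group means over 12 arrays, eBayes with an intensity trend, Benjamini-Hochberg over all genes, adjusted p under 0.05), with exact two-sided permutation tests for single genes. The fit was tested on simulated data. The named genes were the 10 granule genes, the 5 genes most alike, and per list any gene called and the 2 with the largest range of group means. Cebpe, Csf3r, Ms4a3, Prg2, Ear6 and Epx were chosen after their values were seen. The genes and lists were chosen with earlier results of these data known. Promoters were searched in RefSeq sequences of GRCm38.p6.

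The alternatives were a filter on dim genes (6 or more on at least 3 arrays), the variance prior, the arrays in the fit, centring, quantile normalization, array weights, the mean of probe sets, the number in the title as a block, and leaving out arrays. Leaving out both arrays of each of the 6 numbers in turn was added after seeing the data.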

Additional observations from a re-analysis of the deposited data

How the results depend on the processing

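With 3 arrays a group and an SD above 2 for S100a8, S100a9 and Ngp in wild-type HSC, the median half-width of the 95% confidence interval of the 10 genes was 1.17 between 2 groups, against 0.47 over all genes. The number of granule genes called was 0 in each comparison under the 9 planned settings that left out no array by number (8 for the difference between the NFAT5 effects, which needs all groups) and with any 1 array left out. With arrays left out it ran from 0 to 1 for NFAT5-deficient minus wild-type HSC and for HSC minus MPP in NFAT5-deficient cells, the 1 being S100a9 without both arrays of number 75.

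The count over all genes moved more. For HSC minus MPP in NFAT5-deficient cells it was 41, and 12 with only the groups compared, 23 after quantile normalization, 23 with robust eBayes, 3 with the replicate block and 5 to 32 with arrays left out. In wild-type cells it was 32, and 9 with only the groups compared, 5 with the replicate block and 11 to 30 with arrays left out. For NFAT5-deficient minus wild-type MPP it was 1, and 0 with only the groups compared, 3 with arrays centred, 2 after quantile normalization, 6 with array weights and 0 to 4 with arrays left out. For NFAT5-deficient minus wild-type HSC it was 0, and 0 to 5 with arrays left out. For the difference between the NFAT5 effects it was 0, and 1 with the filter on dim genes and 0 to 2 with arrays left out. The filter kept S100a8, S100a9, Ngp and Camp, and the other 6 granule genes have no value under it. Same-numbered HSC and MPP arrays deviated together at r = -0.014 to 0.064 over all genes, and not every array correlated best with its own number, so the numbers were not taken to pair the arrays. For S100a8 and Ngp, wild-type numbers 66 and 67 were high and number 75 low in both populations. The block (consensus correlation 0.0454 where random) left 0 granule genes called. The causes of these changes were not tested, beyond the fewer arrays in some fits.

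Signs turned only for uncalled differences. In NFAT5-deficient minus wild-type MPP, Mmp8 read 0.01 and Mmp9 0.03 with arrays centred, Mmp8 0.01 and Mmp9 0.06 after quantile normalization, and S100a8 0.12 and Mmp9 0.01 with array weights. Mmp9 read 0.00 in wild-type HSC minus MPP after quantile normalization. Ranges that crossed 0 with arrays left out follow. For NFAT5-deficient minus wild-type HSC, Chil3 from -1.29 to 0.12 and Mmp9 from -0.05 to 0.14. For NFAT5-deficient minus wild-type MPP, Chil3 from -0.20 to 0.53, Lcn2 from -0.05 to 0.81, Ltf from -0.26 to 0.08, Mmp8 from -0.29 to 0.27, Mmp9 from -0.07 to 0.03, Retnlg from -0.72 to 0.65, S100a8 from -1.45 to 0.58 and S100a9 from -0.99 to 0.08. For the difference between the NFAT5 effects, Camp from -0.73 to 0.19, Lcn2 from -0.88 to 0.02, Ltf from -0.56 to 0.01, Mmp9 from -0.06 to 0.21, Ngp from -2.02 to 0.34 and Retnlg from -0.84 to 0.69. For HSC minus MPP in NFAT5-deficient cells, Ltf from -0.27 to 0.01 and Mmp8 from -0.45 to 0.23. For HSC minus MPP in wild-type cells, Camp from -0.40 to 0.52, Chil3 from -0.76 to 0.65, Lcn2 from -0.33 to 0.06, Ltf from -0.13 to 0.44, Mmp9 from -0.11 to 0.16, Ngp from -1.32 to 1.03, Retnlg from -1.31 to 0.18, S100a8 from -1.52 to 1.42 and S100a9 from -1.18 to 1.05. By Spearman in place of Pearson correlation, 1 of the 5 most alike genes was shared.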
